A study of Mus musculus with 8 samples.

Results

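The Eph receptors and ephrins considered here are 10 genes chosen by name out of the 55450 gene identifiers counted: the receptor genes Epha1, Epha2, Epha4, Ephb2, Ephb3 and Ephb4 and the ligand genes Efna1, Efna5, Efnb1 and Efnb2. They belong to a mouse family of 22 genes, and the other 12 are described beside them. RNA came from PyMT-1099 cells, a mouse breast cancer line from a tumour driven by the polyoma middle T antigen, known for its change of cell shape under TGF-β. The 4 groups of 2 libraries each were Agps knockout cells given TGF-β over 10 days at 2 ng/ml, Agps knockout cells untreated, parental cells (labelled WT) with the same TGF-β treatment, and parental cells untreated. All 4 knockout libraries carry the same line name, so the knockout is represented by a single line, and a difference between the lines cannot be told apart from other differences between that line and the parental cells. The labels do not state separate cultures within a group, so the spread between libraries may be technical. The spread behind each p-value is that between libraries, drawn for each gene towards a trend over all genes.

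Eph receptors form the largest family of receptor tyrosine kinases, and their ligands, the ephrins, are themselves bound to the membrane of the neighbouring cell. Ephrins of the A class are held by a lipid anchor and bind mainly EphA receptors, while ephrins of the B class span the membrane, bind mainly EphB receptors and can signal back into their own cell. EphA4 binds ligands of both classes. In epithelia and carcinomas the system is known for repulsion, boundary formation and the control of cell contacts, and EphA2 and the pair of ephrin-B2 and EphB4 are the members best known from breast tumours.

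Library totals lay between 17007268 and 21311831 counts, and mitochondrially encoded genes took 2.36% to 4.31% of a library. Agps, the targeted gene of ether lipid synthesis, stood at 43.9 and 35.6 CPM (counts scaled to library size with TMM factors) in knockout cells with TGF-β and at 32.9 and 29.3 CPM in untreated knockout cells, against 264.8 and 266.2 CPM in parental cells with TGF-β and 357.2 and 329.8 CPM in untreated parental cells. Its transcripts were thus lower in every knockout library and still present in each. Of 8 epithelial markers, Epcam, Cldn3, Cldn7 and Esrp1 held 3 counts or fewer in every group, and the summed level of the list was 3234.4 to 3447.8 CPM in knockout cells with TGF-β, 4180.5 to 4506.0 CPM in untreated knockout cells, 3124.7 to 3327.5 CPM in parental cells with TGF-β and 5801.4 to 6395.5 CPM in untreated parental cells. The sum of 6 fibroblast and mesenchymal markers was 189.9 to 190.5 CPM and 209.4 to 229.7 CPM in knockout and parental cells with TGF-β, against 0.966 to 1.11 CPM and 1.58 to 1.70 CPM without it. Of 5 endothelial markers Tie1 was at 0 in 3 of the groups, and the list summed to 6.71 to 8.24 CPM in treated and 0.603 to 0.821 CPM in untreated knockout cells, and to 76.5 CPM in both treated and 1.29 to 1.58 CPM in untreated parental libraries. The sums of 5 immune and 4 neural markers stayed at or under 11.9 CPM, and both were higher with TGF-β in each line. Depending on the group, 2 to 4 fibroblast and mesenchymal and 2 or 3 endothelial markers held 3 counts or fewer. The same was true of 3 or 4 immune and 1 to 3 neural markers. These sums thus rest on few genes. The marker sums moved with TGF-β beside the family genes, and their part in the results below was not tested. In bulk RNA, fewer cells with a transcript and less of it per cell cannot be told apart.

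Of the 10 listed genes 7 were detected and tested, and 3 were below detection in every group, which here means 3 counts or fewer in the 2 libraries together. Ephb3 (GRCm38 chromosome 16, 21204755 to 21223305) had 0 counts in all 8 libraries. Ephb2 (chromosome 4, 136647539 to 136835988) had 3 counts in parental cells with TGF-β, 1 count in knockout cells with TGF-β and 0 counts in both untreated groups. Both encode receptors known from the crypts of the intestine, where they set the position of epithelial cells. Epha1 (chromosome 6, 42358487 to 42373268), the founding member of the family, had 2 counts in untreated knockout cells and 1 count in parental cells with TGF-β, and 6.01% of its exonic length lies under Zyx on the opposite strand. For a gene at 0 counts in a group, 3 counts correspond to between 0.071 and 0.0841 CPM, a limit that covers counting error only. A fall of these receptors could not have been seen at this depth. With TGF-β each stayed at 3 counts or fewer in both lines, so no rise above that level was seen. Ephb4 was therefore the only listed EphB receptor with a measurable transcript, beside Epha2 and Epha4 of the EphA class and all 4 listed ephrins.

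The sequence upstream of the start site is shown for the listed genes with the largest rise and fall in log2 fold change with TGF-β in both lines, Efnb2 and Epha4, and for the undetected Epha1 and Ephb2, which share an E-box with Efnb2. The windows are RefSeq sequences of GRCm38.p6, 250 bases before the annotated start, given 5′ to 3′ on the strand of the gene, and capitals mark the E-box CACCTG or its reverse complement. They span chr8:8661243-8661492 (Efnb2), chr1:77515089-77515338 (Epha4), chr6:42373269-42373518 (Epha1) and chr4:136836013-136836262 (Ephb2), all on the minus strand.
Efnb2: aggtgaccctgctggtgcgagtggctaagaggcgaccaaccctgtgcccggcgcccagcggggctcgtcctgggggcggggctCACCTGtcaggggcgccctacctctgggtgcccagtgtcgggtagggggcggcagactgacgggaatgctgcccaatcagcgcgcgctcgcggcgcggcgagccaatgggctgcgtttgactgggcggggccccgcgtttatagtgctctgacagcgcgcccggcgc
Epha4: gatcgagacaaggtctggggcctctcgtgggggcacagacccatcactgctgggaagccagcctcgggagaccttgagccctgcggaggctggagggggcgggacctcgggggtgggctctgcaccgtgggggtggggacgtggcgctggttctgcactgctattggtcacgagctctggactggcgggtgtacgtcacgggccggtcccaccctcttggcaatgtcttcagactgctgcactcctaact
Epha1: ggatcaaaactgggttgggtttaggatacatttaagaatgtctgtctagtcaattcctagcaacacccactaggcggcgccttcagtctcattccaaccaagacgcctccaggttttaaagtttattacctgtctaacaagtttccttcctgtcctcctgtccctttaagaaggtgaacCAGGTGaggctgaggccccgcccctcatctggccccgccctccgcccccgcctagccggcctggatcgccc
Ephb2: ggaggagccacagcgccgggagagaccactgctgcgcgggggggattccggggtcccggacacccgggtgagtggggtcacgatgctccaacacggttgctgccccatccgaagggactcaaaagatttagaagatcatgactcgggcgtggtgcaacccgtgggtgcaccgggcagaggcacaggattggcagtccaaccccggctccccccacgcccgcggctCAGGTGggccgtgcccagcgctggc
CACCTG is the letter pattern bound by SNAI and ZEB factors, which are known repressors of epithelial genes. With 50 further bases after the start, it was found on either strand in 3 of the 11 windows of the 10 genes (Efna1 has a pair of windows), against 20.2% of 32851 windows of all genes. It began 167 bases before the start of Efnb2, 71 before that of Epha1 and 25 before that of Ephb2, and these letters were not in the windows of Epha4, Epha2, Ephb4, Efna1, Efna5, Efnb1 and Ephb3. The AP-1 pattern TGANTCA was in 0 of the 11 windows and in 7.81% of all windows. The windows of the listed genes held 54.7% to 73.3% G and C, with a median of 52.7% over all windows. A match is a description of the letters and not a binding site.

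Levels were compared between genes per kilobase of exon (CPM per kb, with the union of GENCODE exons as length). Epha2, the receptor for ephrin-A1 and a widespread EphA receptor of carcinomas (chromosome 4, 141301240 to 141329384), was the highest listed gene in each of the 4 groups. It had 42.4 ± 2.86 and 48.1 ± 4.12 CPM per kb in knockout cells with and without TGF-β, and 56.6 ± 4.76 and 70.7 ± 0.368 CPM per kb in parental cells with and without TGF-β (SD, n = 2 each). Its share of all receptor transcripts of the family was 60.0%, 52.4%, 65.2% and 61.7% in the same 4 groups. The next gene was Efnb2 in both TGF-β groups, at 23.7 ± 0.894 CPM per kb in knockout and 38.3 ± 0.214 CPM per kb in parental cells, and Epha4 in both untreated groups, at 23.5 ± 3.18 CPM per kb in knockout and 21.1 ± 1.92 CPM per kb in parental cells. In untreated parental cells the libraries of Epha4 overlapped those of Efnb2, which had 20.2 ± 0.478 CPM per kb, so that the order of this pair is not fixed there. In untreated knockout cells Efnb2 was next to last at 9.18 ± 0.175 CPM per kb, overlapping Efna1 at 8.10 ± 2.17 CPM per kb. Other neighbours whose libraries overlapped were Efnb1 with Epha4 and Epha4 with Efna1 in knockout cells with TGF-β, Efnb1 with Ephb4 in parental cells with TGF-β, and Efna1 with Efna5 in untreated parental cells.

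**Figure D1:**
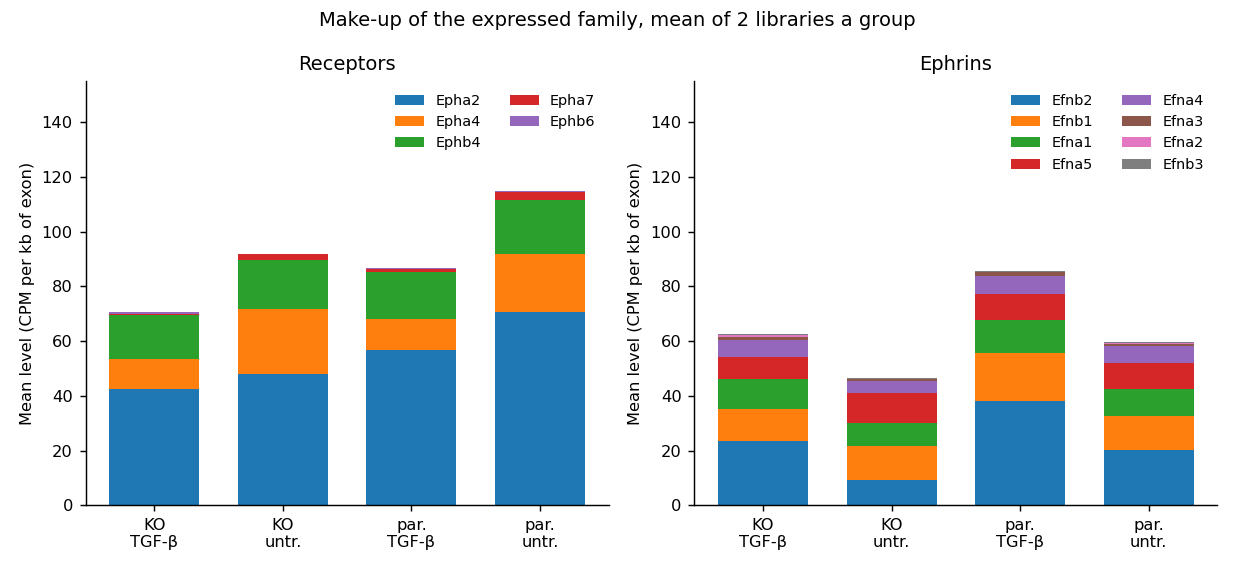
Mean level of each expressed family gene (CPM per kb of exon, y axis) stacked by group (x axis) for receptors on the left and ephrins on the right, 2 libraries a group. Receptor totals were lower with TGF-β in both lines and ephrin totals higher, and Efnb2 was the ephrin with the largest gain in CPM per kb in both lines.

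Summed over the family, receptor transcripts came to 70.7 ± 4.95 CPM per kb in knockout cells with TGF-β, against 91.8 ± 8.41 CPM per kb in untreated knockout cells. In parental cells the sums were 86.7 ± 4.31 CPM per kb with TGF-β and 114.8 ± 2.26 CPM per kb without it. Ephrin transcripts went the other way, with 62.7 ± 3.54 CPM per kb in treated and 46.5 ± 3.18 CPM per kb in untreated knockout cells, and 85.7 ± 0.849 CPM per kb in treated and 59.7 ± 1.34 CPM per kb in untreated parental cells (SD, n = 2 each). The libraries of treated and untreated cells did not overlap in either sum or in either line. The share of Efnb2 among ephrin transcripts was 37.9% ± 3.54 in treated and 19.8% ± 0.99 in untreated knockout cells, and 44.8% ± 0.212 in treated and 33.9% ± 1.56 in untreated parental cells. These sums and shares are descriptions without a test, and the 10 listed genes made up 92.2% to 94.5% of the family in each library.

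The first pair of comparisons asked how the family responds to TGF-β in each line. In knockout cells 3 of the 7 tested genes passed at an adjusted p under 0.05, 1 higher (Efnb2) and 2 lower (Epha4 and Efna5), where 41.4% of all 14641 tested genes passed, 20.9% higher and 20.6% lower. In parental cells 4 of 7 passed, 2 higher (Efnb2 and Efnb1) and 2 lower (Epha4 and Epha2), where 42.5% of all genes passed, 21.3% higher and 21.2% lower. Without replicate 2 of the treated parental cells 2 members passed there. The members' shares are thus near those of all genes. The median log2 fold change of the 7 was -0.18 in knockout and -0.02 in parental cells, beside 0.00 and 0.01 over all tested genes.

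**Figure D2:**
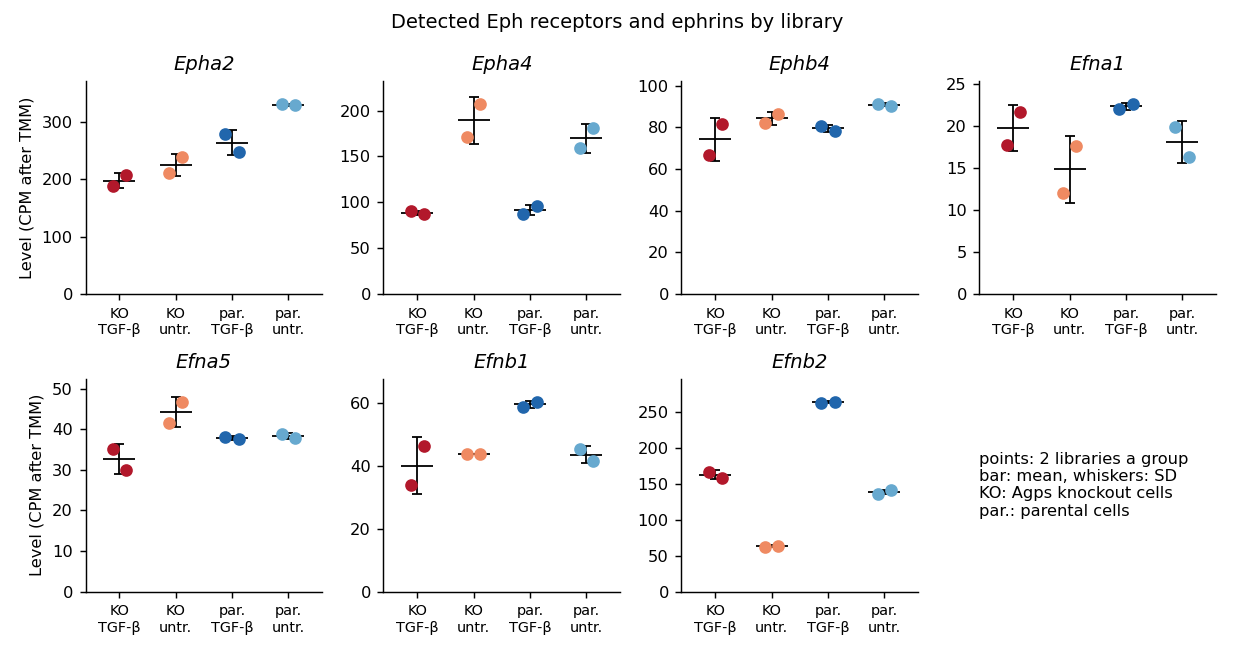
Level of the 7 detected genes (CPM after TMM, y axis from 0) in each library, with 2 points a group, the mean as a bar and the SD as whiskers. Efnb2 is higher and Epha4 lower with TGF-β in both lines, and Epha2 and Efnb2 are lower in knockout cells.

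Among the receptors, Epha4 (chromosome 1, 77367185 to 77515088) fell with TGF-β in both lines. Its levels were 90.1 and 86.9 CPM in treated against 171.1 and 207.4 CPM in untreated knockout cells, and 87.7 and 95.5 CPM in treated against 158.8 and 180.7 CPM in untreated parental cells. Every treated library was below every untreated one. The log2 fold change was -1.10 (standard error, SE, 0.11, adjusted p = 8.68e-06) in knockout cells, or 2.14-fold lower. It was -0.89 (SE 0.11, adjusted p = 5.06e-05) in parental cells, or 1.85-fold lower.

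Epha2 had 188.7 and 207.6 CPM in treated against 211.1 and 238.4 CPM in untreated knockout cells, and 280.1 and 248.6 CPM in treated against 331.9 and 329.4 CPM in untreated parental cells. The treated libraries were lower without overlap in both lines, but narrowly so in knockout cells. Epha2 fell in parental cells by 0.32 on the log2 scale (SE 0.10, adjusted p = 0.0179). That call was lost without replicate 2 of the treated parental cells (adjusted p = 0.171, the highest of 16 alternatives, which began at 0.00324). In knockout cells its log2 fold change was -0.18 (95% interval -0.39 to 0.03, adjusted p = 0.157).

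Ephb4, the receptor of ephrin-B2 that is known from veins (chromosome 5, 137350109 to 137378669), had 66.9 and 81.4 CPM in treated against 82.2 and 86.4 CPM in untreated knockout cells, and 80.6 and 78.4 CPM in treated against 91.3 and 90.4 CPM in untreated parental cells. The differences were small beside those of Epha4, at -0.19 in either line on the log2 scale (95% interval -0.41 to 0.04 in knockout cells and -0.42 to 0.03 in parental cells), and neither passed. Without replicate 2 of the treated knockout cells the change in that line was -0.33 and passed (adjusted p = 0.0374, over all alternatives up to 0.763).

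Among the ligands, Efnb2, the ephrin-B best known from arteries (chromosome 8, 8617434 to 8661242), rose with TGF-β in both lines. It had 166.6 and 158.0 CPM in treated against 62.1 and 63.8 CPM in untreated knockout cells, and 261.7 and 263.8 CPM in treated against 136.2 and 140.8 CPM in untreated parental cells. Treated and untreated libraries were far apart, with replicates close together in each group. The log2 fold change was 1.37 (SE 0.08, adjusted p = 1.22e-07) in knockout cells, or 2.58-fold higher, and 0.92 (SE 0.08, adjusted p = 2.70e-06) in parental cells, or 1.90-fold higher. Set against its receptor Ephb4 per kilobase, Efnb2 transcripts were 1.69 and 1.31 times as abundant in treated and 0.511 and 0.500 times in untreated knockout cells, and 2.20 and 2.28 times in treated and 1.01 and 1.05 times in untreated parental cells. This ratio is a description without a test.

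Efnb1, the other listed transmembrane ephrin, whose human counterpart is mutated in craniofrontonasal syndrome (chromosome X, 99136130 to 99148991), had 33.8 and 46.5 CPM in treated against 43.9 and 43.7 CPM in untreated knockout cells, and 58.9 and 60.5 CPM in treated against 45.5 and 41.6 CPM in untreated parental cells. In knockout cells the treated libraries lay on either side of the untreated ones, and in parental cells they were above them. Efnb1 rose in parental cells by 0.45 on the log2 scale (SE 0.13, adjusted p = 0.0181). The call was lost without replicate 2 of the untreated or without replicate 1 or 2 of the treated parental cells (adjusted p = 0.0895, 0.0684 and 0.0955, with the 16 alternatives between 0.00343 and 0.0955). In knockout cells the log2 fold change was -0.13 (95% interval -0.42 to 0.17, adjusted p = 0.496), and it was 0.09 without replicate 1 and -0.37 without replicate 2 of the treated knockout cells, where only the value of -0.37 passed (adjusted p = 0.0416, with all alternatives up to 0.682).

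Among the listed lipid-anchored ephrins, Efna5, a ligand known from axon guidance (chromosome 17, 62604184 to 62881317), had 35.2 and 29.9 CPM in treated against 41.6 and 46.8 CPM in untreated knockout cells, and 38.1 and 37.5 CPM in treated against 38.8 and 37.8 CPM in untreated parental cells. It fell in knockout cells by 0.44 on the log2 scale (SE 0.11, adjusted p = 0.00765), a call lost without replicate 2 of the untreated or replicate 2 of the treated knockout cells (adjusted p = 0.0587 and 0.0771, with the 16 alternatives between 0.00402 and 0.0771). In parental cells the log2 fold change was -0.02 (95% interval -0.26 to 0.23), and the libraries overlapped. Efna1, the ligand of EphA2 first described as a gene induced by tumour necrosis factor (chromosome 3, 89271733 to 89281142), had 17.7 and 21.6 CPM in treated against 12 and 17.6 CPM in untreated knockout cells, and 22.0 and 22.6 CPM in treated against 19.8 and 16.3 CPM in untreated parental cells. Its log2 fold changes of 0.41 (95% interval 0.01 to 0.80, adjusted p = 0.0972) and 0.30 (95% interval -0.09 to 0.70, adjusted p = 0.204) in knockout and parental cells did not pass. In knockout cells it was 0.71 without replicate 2 of the untreated cells, and that value passed (adjusted p = 0.00879). It also passed without a filter on low counts (adjusted p = 0.0405), while the other alternatives did not and reached 0.538.

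**Figure D3:**
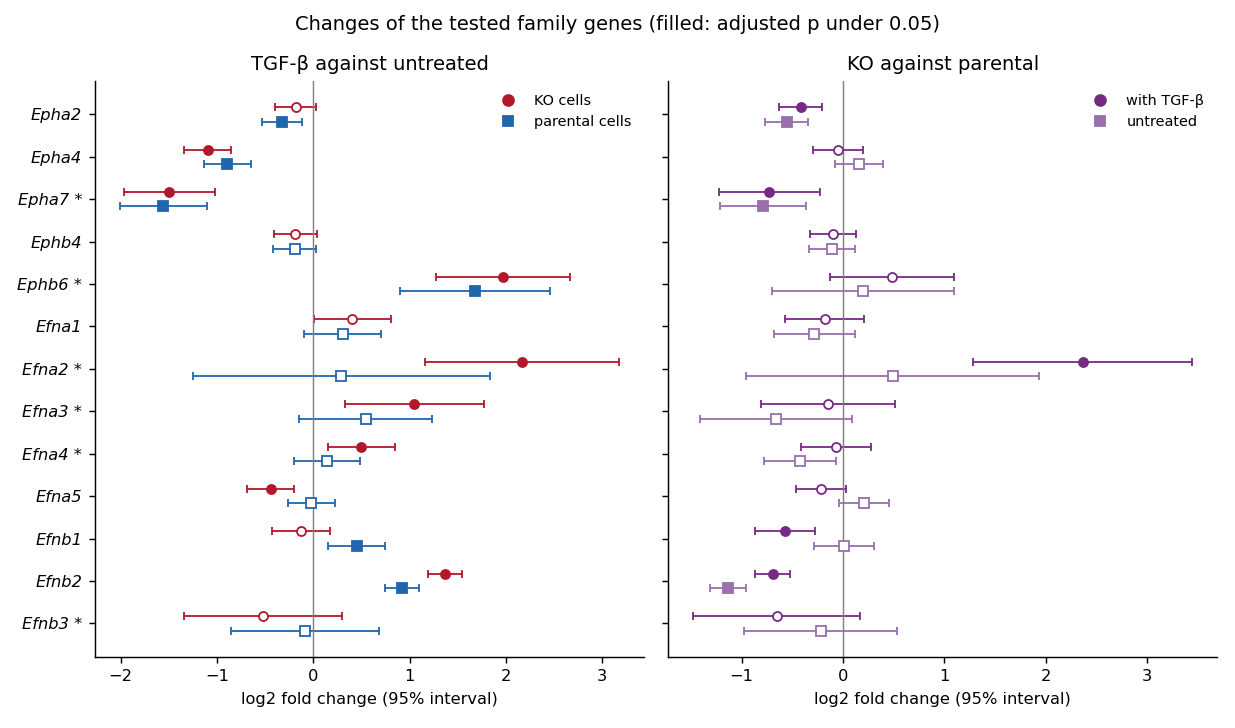
Log2 fold change (x axis) with its 95% interval for the 13 tested family genes (rows), for TGF-β against untreated cells on the left and knockout against parental cells on the right. Filled symbols have an adjusted p under 0.05, and an asterisk marks genes that are not among the 10 listed. Efnb2 and Ephb6 lie to the right and Epha4 and Epha7 to the left of 0 with TGF-β in both lines.

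Of the 12 other family genes 6 were tested. Epha3, Epha5, Epha6, Epha8 and Ephb1 were below detection in every group, and Epha10, with 4 counts in untreated knockout cells, was not tested. Epha7, a receptor known mainly from the nervous system, fell with TGF-β in both lines. It had 6.17 and 6.93 CPM in treated against 15 and 21.9 CPM in untreated knockout cells, and 10.3 and 11.3 CPM in treated against 26.6 and 37.3 CPM in untreated parental cells. The log2 fold changes were -1.50 (adjusted p = 1.73e-04) and -1.56 (adjusted p = 8.58e-05). Ephb6, a receptor without kinase activity, rose in both lines at low counts, with 43 and 52 counts in treated against 13 and 14 counts in untreated knockout cells, and with 34 and 30 counts in treated against 8 and 12 counts in untreated parental cells (log2 fold change 1.97 and 1.68, adjusted p = 4.00e-04 and 0.00265). Of the lipid-anchored ephrins, Efna2, Efna3 and Efna4 rose in knockout cells, by 2.17, 1.05 and 0.50 on the log2 scale (adjusted p = 0.00266, 0.0232 and 0.0260). Their values in parental cells, at 0.29, 0.54 and 0.14, did not pass. The knockout value minus the parental value was 1.875, 0.507 and 0.355, which did not pass either (edgeR adjusted p = 0.376, 0.709 and 0.549). A rise particular to knockout cells is thus not shown for these genes. Efna2 rests on 31 and 30 counts in treated and 4 and 11 counts in untreated knockout cells, and its rise was 1.65 without replicate 1 and 3.02 without replicate 2 of the untreated cells. The call of Efna3 was lost without replicate 1 of the untreated (adjusted p = 0.108) or replicate 2 of the treated knockout cells (0.172), and that of Efna4 without either untreated knockout library (0.0576 and 0.108), without replicate 2 of the treated ones (0.190), in a fit of the knockout libraries alone (0.0518) and with DESeq2 (0.0552). Efnb3 did not pass in either line. Efna3, Efna4 and Efna1 lie side by side on chromosome 3, and exons on the opposite strand cover 14.1% of Efna3 and 10.5% of Efna4, so that their counts may hold reads of those genes.

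The next pair of comparisons asked how knockout cells differ from parental cells. These contrasts share their libraries with the TGF-β contrasts above. With TGF-β 3 of the 7 tested genes were lower in knockout cells (Epha2, Efnb1 and Efnb2) and 0 higher by edgeR, where 17.9% of all tested genes passed, 11.1% lower and 6.82% higher. Without replicate 1 of the parental or of the knockout cells with TGF-β, only 1 of the 3 passed. Without TGF-β 2 of 7 were lower (Epha2 and Efnb2) and 0 higher, where 13.7% of all genes passed, 8.94% lower and 4.72% higher. DESeq2 gave the same 3 and 2 lower and 0 higher counts, and 0 were higher at an unadjusted p under 0.05 in either state. The median log2 fold change of the 7 was -0.21 with and -0.11 without TGF-β, beside 0.01 and 0.00 over all genes.

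Efnb2 was lower in knockout cells in both states. With TGF-β it stood at 162.3 ± 6.13 CPM in knockout and 262.7 ± 1.47 CPM in parental cells (SD, n = 2 each), a log2 fold change of -0.69 (SE 0.08, adjusted p = 1.62e-04). Untreated, it stood at 63.0 ± 1.20 CPM in knockout and 138.5 ± 3.28 CPM in parental cells, a log2 fold change of -1.14 (SE 0.08, adjusted p = 7.68e-06). The treated knockout libraries were thus above the untreated parental ones and below the treated parental ones. Chromosome 8, which carries Efnb2, was itself lower in knockout cells. The median log2 fold change over its 809 other tested genes was -0.47 with and -0.46 without TGF-β, and that of the 61 tested genes within 5 Mb of Efnb2 was -0.35 and -0.30. A log2 fold change lower than that of Efnb2 was found for 29.9% of the genes of the chromosome with TGF-β and for 8.5% without it. The part of the chromosome in the result was not tested.

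Epha2 was lower in knockout cells as well. With TGF-β it stood at 198.1 ± 13.4 CPM in knockout and 264.4 ± 22.2 CPM in parental cells (SD, n = 2 each), a log2 fold change of -0.42 (SE 0.10, adjusted p = 0.0115). That call was lost without replicate 1 of the parental or of the knockout cells with TGF-β (adjusted p = 0.139 and 0.0939, with the 16 alternatives between 5.42e-04 and 0.139). Untreated, it stood at 224.7 ± 19.2 CPM in knockout and 330.6 ± 1.72 CPM in parental cells, a log2 fold change of -0.56 (SE 0.10, adjusted p = 0.00262), which passed in each of 16 alternatives. The median over the 882 other tested genes of chromosome 4 was 0.02 with and 0.03 without TGF-β, and 11.7% and 7.9% of them had a lower log2 fold change than Epha2.

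**Figure D4:**
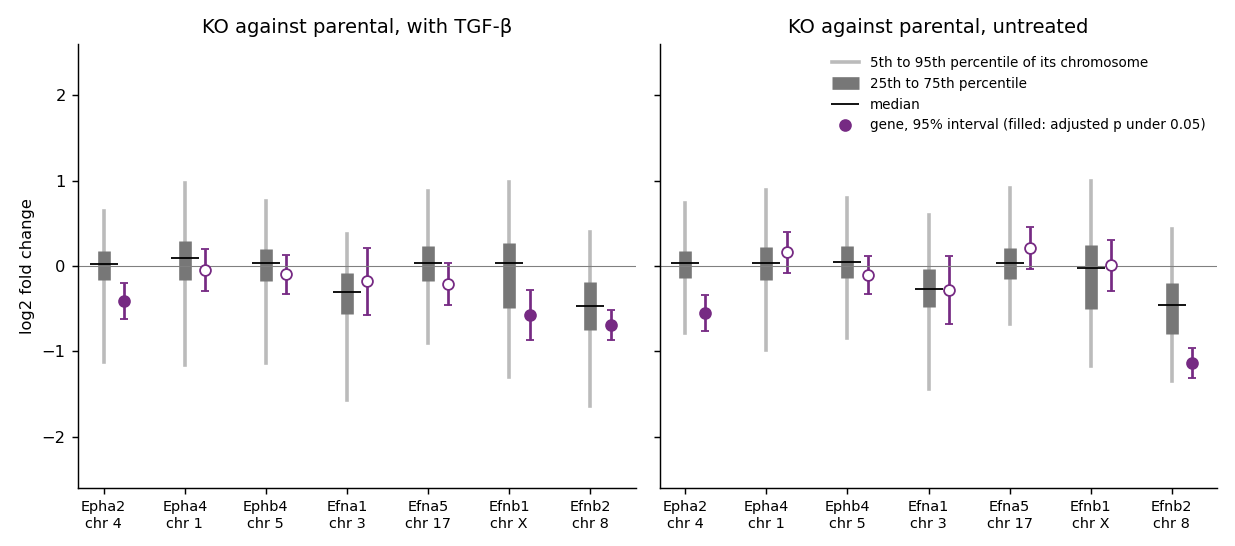
Log2 fold change of knockout against parental cells (y axis) for the 7 detected genes (points with 95% intervals, filled where the adjusted p is under 0.05) beside the distribution of all tested genes of the same chromosome (bars). The medians of chromosomes 3 and 8 lie below 0, and Efnb2 lies below the median of chromosome 8 in both states.

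Efnb1 was lower in knockout cells with TGF-β, where it stood at 40.1 ± 9.0 CPM in knockout and 59.7 ± 1.13 CPM in parental cells (SD, n = 2 each), a log2 fold change of -0.57 (SE 0.13, adjusted p = 0.0126). The call was lost without replicate 1 or 2 of the treated parental or replicate 1 of the treated knockout cells (adjusted p = 0.0686, 0.0853 and 0.0880, with the 16 alternatives between 1.40e-04 and 0.0880), and the value was -0.36 without the knockout library. Untreated, the levels were 43.8 ± 0.134 CPM in knockout and 43.6 ± 2.75 CPM in parental cells, a log2 fold change of 0.01 (95% interval -0.29 to 0.30). A difference of the line effect between the states did not pass (-0.58, adjusted p = 0.171). The median over the 471 other tested genes of chromosome X was 0.03 with and -0.02 without TGF-β. Of these genes 22.9% with and 53.9% without TGF-β had a lower log2 fold change than Efnb1.

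The other 4 tested members did not pass in either state. Epha4 had a log2 fold change of -0.05 (95% interval -0.29 to 0.19) with and 0.16 (-0.08 to 0.39) without TGF-β, and Ephb4 of -0.10 (-0.33 to 0.13) with and -0.11 (-0.33 to 0.12) without. Efna5 had -0.21 (-0.46 to 0.03) with and 0.21 (-0.04 to 0.45) without TGF-β. Efna1 had -0.18 (-0.58 to 0.21) with and -0.28 (-0.69 to 0.12) without TGF-β, where the median over the 763 other tested genes of its chromosome 3 was -0.30 and -0.27.

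Of the other family genes, Epha7 was lower in knockout cells with TGF-β (log2 fold change -0.73, adjusted p = 0.0463) and without it (-0.79, adjusted p = 0.0193). The first call was lost with RLE scaling (adjusted p = 0.0503) and without any 1 of the 4 treated libraries (0.120 to 0.215), and the second without replicate 2 of the parental cells (0.121), without replicate 1 of the knockout cells (0.108) and in a fit of the untreated libraries alone (0.0974). Efna2 was higher in knockout cells with TGF-β, at 31 and 30 counts in knockout against 8 and 3 counts in parental libraries (log2 fold change 2.37, adjusted p = 0.00659). That log2 fold change was 1.91 without replicate 2 of the treated parental cells, where the call was lost (adjusted p = 0.0776), and 3.12 without replicate 1 of them. The remaining tested genes of the family, Ephb6, Efna3, Efna4 and Efnb3, did not pass in either state.

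The last comparison asked whether the TGF-β change differs between the lines. By edgeR 0 of the 7 tested members passed, where 2.40% of all tested genes passed, 1.25% with a positive and 1.15% with a negative difference, while 3 had an unadjusted p under 0.05 and 1 passed with DESeq2. Efnb2 had the lowest p. Its change in knockout minus that in parental cells was 0.44 on the log2 scale (95% interval 0.20 to 0.69, unadjusted p = 0.00227, adjusted p = 0.0719). With DESeq2 it was 0.45 and passed (adjusted p = 0.0485). In edgeR with replicate number as a block it was 0.44 and also passed (adjusted p = 0.0407). It passed in only these 2 of 15 alternatives. Efnb1 had a difference of -0.58 (95% interval -0.998 to -0.162, unadjusted p = 0.0109, adjusted p = 0.171) and Efna5 of -0.42 (95% interval -0.77 to -0.08, unadjusted p = 0.0214, adjusted p = 0.245). The calls of Efnb1, Epha2 and Efna5 in a single line are therefore not shown to differ between the lines. For Epha2, Epha4, Ephb4 and Efna1 the differences were 0.14 (-0.16 to 0.44), -0.21 (-0.54 to 0.13), 0.01 (-0.31 to 0.33) and 0.10 (-0.46 to 0.66), each with its 95% interval.

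Genes that act with Eph receptors and ephrins were counted in 3 lists, where genes that rose or fell are those with an edgeR adjusted p under 0.05. Over all tested genes 20.9% rose and 20.6% fell with TGF-β in knockout cells. In parental cells 21.3% rose and 21.2% fell. The median log2 fold change over all tested genes was 0.00 in knockout and 0.01 in parental cells. Of 33 tested adaptors, kinases and regulators of small GTPases in forward signalling, 11 rose and 6 fell with TGF-β in knockout cells and 11 rose and 8 fell in parental cells, with a median log2 fold change of 0.05 and 0.03. Chn2, which encodes a chimaerin, a GTPase-activating protein for Rac, stood at 17.8 CPM in treated and 96.5 CPM in untreated knockout cells and at 26.9 CPM in treated and 104.9 CPM in untreated parental cells (log2 fold change -2.44 and -1.97, adjusted p = 1.57e-07 and 7.98e-07). Its relative Chn1, whose product acts downstream of EphA4 in neurons, rose in parental cells by 3.92 on the log2 scale, with 378 counts in treated and 25 counts in untreated libraries. It had 9 counts in treated and 0 counts in untreated knockout libraries, so no fold is given there. Ngef, which encodes the exchange factor ephexin that binds EphA4, had 10 counts in treated and 475 counts in untreated knockout cells, against which parental cells had 5 counts in treated and 399 counts in untreated parental cells. Arhgef16, an exchange factor gene of the same subfamily, fell by 1.51 in knockout and 1.49 in parental cells on the log2 scale (adjusted p = 2.87e-07 and 3.32e-07). Between the lines Chn1 was lower in knockout cells in both states, with TGF-β at 9 counts against 378 counts in parental libraries. In the test of the difference between the lines 1 gene of this list passed, Rin1, an effector of Ras that also binds EphA4 (0.81, adjusted p = 0.0202), where 2.40% of all tested genes passed. It is named after its value was seen because it was the only one. The adjusted p of Rin1 lay between 0.000382 and 0.120 over 15 alternatives, and the call was lost without any 1 of the 4 libraries with TGF-β (0.120, 0.0701, 0.0872 and 0.0571).

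All 6 listed partners of the ephrin-B tail were tested, and 1 rose and 3 fell with TGF-β in knockout cells and 1 rose and 2 fell in parental cells, with a median log2 fold change of -0.35 and -0.39. The rising gene in both was Rgs3, whose product binds the ephrin-B tail and limits G protein signalling, at 3.75 CPM in treated against 0.757 CPM in untreated knockout cells and 6.04 CPM in treated against 1.55 CPM in untreated parental cells (log2 fold change 2.29 and 1.96, adjusted p = 3.95e-05 and 5.18e-05). Of 12 tested genes of cleavage, dephosphorylation and turnover, 4 rose and 2 fell in knockout cells and 5 rose and 3 fell in parental cells, with a median of 0.22 and 0.05. Mmp14, which encodes a membrane-bound metalloproteinase that can cleave EphA2, rose in both lines, to 160.1 CPM in treated against 45.6 CPM in untreated knockout cells and to 168.8 CPM in treated against 42.3 CPM in untreated parental cells (log2 fold change 1.81 and 2.00, adjusted p = 7.56e-08 and 4.33e-08). The shares called in the 3 lists were read beside the 41.4% and 42.5% of all genes, and nothing particular to a list is drawn from them.

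The genes whose level ran most alike were looked up for each member that averaged 3 or more in log2 CPM and passed in a comparison between groups, by Pearson's r of log2 CPM over the 8 libraries among 9326 genes. With 4 groups of 2 libraries such values are high by construction and are given as a description. For Efnb2 they were Dock1 (r = 0.995), which encodes an exchange factor for Rac, and Kirrel (r = 0.994), a cell adhesion gene with 154.5 CPM in treated and 68.4 CPM in untreated knockout cells and 244.0 CPM in treated and 125.6 CPM in untreated parental cells. For Epha4 they were Gclc (r = 0.997) and Unk (r = 0.996), for Epha2 Afg3l1 and Dusp8 (r = 0.987 for both), for Efna5 Msantd2 and Pwwp2a (r = 0.970 and 0.948) and for Efnb1 Ccl25 and Sh3bp5l (r = 0.946 and 0.938).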

How the data were processed

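Polyadenylated RNA of 8 libraries was made into libraries (KAPA mRNA HyperPrep), per the labels' protocols. Per the submitters' processing notes STAR 2.7.1a, featureCounts 1.6.2 and DESeq2 1.26.0 were used with GRCm38 (mm10). The deposited files hold raw counts per Ensembl gene, per the file headers. Neither annotation release nor strandedness of counting is stated. All 55450 identifiers matched GENCODE M21, which gave symbols, positions and exon lengths. The authors' table of normalized values was not used.

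Genes were kept by filterByExpr (minimum count 10), which left 14641 genes, and scaled by TMM. edgeR 4.0.16 (R 4.3.3) fitted 1 mean per group over all 8 libraries (quasi-likelihood, 4 residual degrees of freedom) for 5 contrasts. The spread of each gene was moderated towards a trend over all genes. Intervals and p-values thus rest on more than each gene's own replicates. P-values were adjusted by Benjamini-Hochberg over all genes, and standard errors were derived from the F statistic. On simulated counts for TGF-β in knockout cells, 97% of genes changed 2-fold and 100% of those changed 4-fold were recovered, with 12 false calls among 14130 genes. The changed genes were drawn only from those with an average log2 CPM above 1. Simulated spread followed the fitted trend, without a spread of each gene's own. Recovery of smaller changes and of genes with lower counts was not tested. Replicates of a group differed by more than counting error.

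The 10 genes are a given list. Genes that act with the family are named by size and adjusted p (at least 1 on the log2 scale, average log2 CPM of at least 1, at most 4 a list). Rin1, with a difference of 0.81, falls outside this rule and was named after its value was seen. Members and lists were chosen with earlier results of these data known. Alternatives were DESeq2 1.42.0, other scalings and filters, pairwise fits, a replicate block and leaving out each library.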

Additional observations from a re-analysis of the deposited data

Results flagged for a closer look

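The TGF-β change of Rin1, which encodes a Ras effector that binds EphA4, differed between the lines by an interaction term. Its log2 fold change was 0.91 (adjusted p = 3.36e-05) in knockout and 0.11 (adjusted p = 0.463) in parental cells, and the difference was 0.81 (SE 0.15, edgeR adjusted p = 0.0202). The call was lost without any 1 of the 4 libraries with TGF-β (adjusted p = 0.120, 0.0701, 0.0872 and 0.0571), and it held in 11 of 15 alternatives. In this contrast 2.40% of all tested genes passed. Rin1 was picked after its value was seen, as the only gene that passed among the 33 tested genes of its list. Without TGF-β, Rin1 was lower in knockout than in parental cells (log2 fold change -0.50, edgeR adjusted p = 0.00981). With TGF-β the difference between the lines did not pass (0.30, adjusted p = 0.0726).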

How the results depend on the processing

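With 2 libraries a group, the modest changes of single members rest on each library, and recovery of changes at low counts was not tested. The falls of Epha4 and rises of Efnb2 with TGF-β, and the lower Efnb2 in both states and Epha2 untreated in knockout cells, passed in each of the 16 alternatives tried for them. Of 158 recomputed counts of calls 142 stayed within 1.5 times, and no scaling moved the median of all genes by over 0.1. Of 1205 single gene values 1143 kept their direction and side of the threshold, 31 lost and 6 gained a call, and 25 changed sign, none of which passed in the fit reported. Values for genes that are not listed members were added after seeing the data, and the cause of a changed value was not tested.

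Whether the replicate numbers pair the libraries is not settled by these data. Deviations of same-numbered libraries correlated weakly, at 0.022 to 0.308 between groups, and the main fit used no block. With the replicate block 679 genes instead of 352 passed in the difference of TGF-β changes. Among the members it was 1 instead of 0 (Efnb2, adjusted p = 0.0407). DESeq2 also called 1 member there, and without a filter 855 genes passed. In a fit of the untreated libraries alone 1111 genes instead of 2000 differed between the lines. Leaving out single libraries gave 1188 to 2922 genes between the lines with TGF-β (main 2618), 120 to 421 in the difference of TGF-β changes, 2 to 4 members called with TGF-β in parental cells and 1 to 3 members between the lines with TGF-β.

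Changes of sign were as follows, on the log2 scale, with the range over fits that each leave out 1 library. With TGF-β in knockout cells Efnb1 ranged between -0.372 and 0.087. With TGF-β in parental cells Efna2 ranged between -0.471 and 0.927 and Efnb3 between -0.386 and 0.304, and Efna5 was 0.024 with upper quartile scaling. Between the lines with TGF-β, Epha4 ranged between -0.113 and 0.014, Ephb4 between -0.231 and 0.035, Efna3 between -0.417 and 0.100 and Efna4 between -0.223 and 0.090. Between the untreated lines Efnb1 ranged between -0.057 and 0.069, Ephb6 between -0.140 and 0.591, Efna2 between -0.363 and 1.131 and Efnb3 between -0.516 and 0.174. Efnb1 was -0.030 there with scaling on genes outside chromosomes 3, 8, 15 and X and -0.008 without a filter. In the difference of TGF-β changes Ephb4 ranged between -0.126 and 0.145 and Efna1 between -0.146 and 0.406, and Ephb4 was -0.023 with upper quartile scaling and -0.002 with a filter of 1 CPM in 2 libraries.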
